A study of Mus musculus with 24 samples.

Results

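HPC-1 cells are restricted progenitors of mouse bone marrow, and their response to loss of Phf6 was read from 8 of the series' 24 libraries, chosen by their labels: 4 from mice with Phf6 deleted and 4 from control mice with Phf6 intact. Each library is poly(A) RNA of 1 mouse, so the replicates are separate animals. The 8 mice came from 4 litters of 1 deleted and 1 control mouse, and the library number is the litter number. The strain label, Phf6lox/Y;Tie2-creTg/+, names a floxed Phf6 allele on the single X chromosome of males and a Cre transgene driven by Tie2, which is active in endothelial and blood-forming cells. It is worded alike for deleted and control mice, and whether the controls carried Cre is not stated, nor is the age of the mice. The other 16 libraries are haematopoietic stem cells (HSC) and multipotent progenitors (MPP) of the same mice, made with another library kit (SMART-Seq v4 and Nextera XT, against TruSeq Stranded for HPC-1), so population and kit cannot be told apart where HPC-1 is set beside them.

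PHF6 carries zinc fingers related to the plant homeodomain, is found on chromatin and in the nucleolus, and binds the NuRD remodelling complex. The human gene is mutated in T-cell leukaemia and in myeloid cancers. HPC-1 cells carry cKIT and SCA1 like stem cells, but they also carry CD48 and lack CD150. They are multilineage progenitors that repopulate the blood only briefly after transplantation. Interferons act on such progenitors by switching on antiviral genes, many of which carry a repeated GAAA element in their promoters.

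The libraries held 16562824 to 27786830 counts. The sorted phenotype was seen in the RNA, given per length as RPKM: Kit, the stem cell factor receptor used in the sort, was at 128 to 173 in deleted and 145 to 185 in control libraries. Cd48 was at 175 to 196 and 147 to 178 RPKM, and Ly6a, which encodes SCA1, at 48.3 to 93.1 and 36.2 to 67.7 RPKM. Slamf1, which encodes CD150, was at 0 to 0.393 RPKM in deleted and 0.403 to 0.541 RPKM in control libraries, near 0 in all 8. Of the genes behind the lineage depletion, Cd3e, Cd3d and Cd3g were each under 1 CPM, the count scaled to library size, in every library, as was the B cell gene Ms4a1. Of the 8 depletion genes 4 were testable, with 3 of 4 higher in deleted libraries, a median log2 fold change of 0.39 and no call. The 8 genes summed to 4.20 to 11.3 CPM in deleted and 2.06 to 9.62 CPM in control libraries. Markers of HPC and lymphoid-primed progenitors summed to 3425, 3386, 3431 and 3704 CPM in deleted libraries and 3977, 3856, 3745 and 4054 CPM in controls, lower in the deleted mouse of each litter and without overlap. Of the 7 markers 5 were lower, with a median log2 fold change of -0.17. None passed in edgeR (0 at an unadjusted p under 0.05 without and 6 with the litter), and DESeq2 called 1 with the litter and limma-voom 0. Their part in the results that follow was not tested. Both libraries of litter 4 stood apart in immediate early genes, with a summed level of 17300 CPM in the deleted and 18920 CPM in the control mouse, against at most 4692 CPM in the other 6 libraries.

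Deletion was visible at Phf6 itself (chrX:52912214-52956961 on GRCm38). The gene stood at 32.8, 23.99, 32.1 and 20.98 CPM in the deleted libraries of litters 1 to 4, against 108, 142, 117 and 98.9 CPM in their control littermates. The deleted mean was 23.6% of the control mean, and the groups were far apart. In edgeR's quasi-likelihood test Phf6 fell with a log2 fold change, deleted over control, of -2.08 ± 0.16 (SE, n = 4 each, adjusted p = 3.29e-05). For the genes below, brackets give this log2 fold change with its standard error and then edgeR's adjusted p, both from the fit that the sentence names. Each edgeR standard error was worked back from the test, as the size of the log2 fold change over the square root of the F statistic. Reads from any Phf6 exon were counted together, also from exons that the deletion leaves in place. In bulk samples fewer cells of a type and less RNA per cell cannot be told apart, here and in every result that follows.

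The comparison asked which genes differ in HPC-1 cells once Phf6 is deleted. Of 13907 genes tested without pairing, 9 passed an adjusted p of 0.05 in edgeR, a background of 0.0647%, with 4 higher (0.0288%: Slc6a15, Iigp1, Gm4951 and Igkv12-44) and 5 lower (0.036%: Phf6, Col4a2, Zfp532, Sdsl and Adgrl1). With the litter in the fit, so that each deleted mouse is set against its own littermate, 60 genes passed, a background of 0.431%, with 30 higher and 30 lower (0.216% each). All 9 were among the 60, and each of the 60 moved the same way in 4 of 4 litters. Over all genes tested, 7.84% were higher and 8.28% lower in 4 of 4 litters. The paired fit selects for a change shared by the litters, so this is no separate support for the 60. The groups of 4 did not overlap for 42 of the 60. Over all genes tested, 1.58% were non-overlapping and higher and 2.08% non-overlapping and lower. An unadjusted p under 0.05 was reached by 694 genes (4.99%) without and 1106 genes (7.95%) with the litter.

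**Figure D1:**
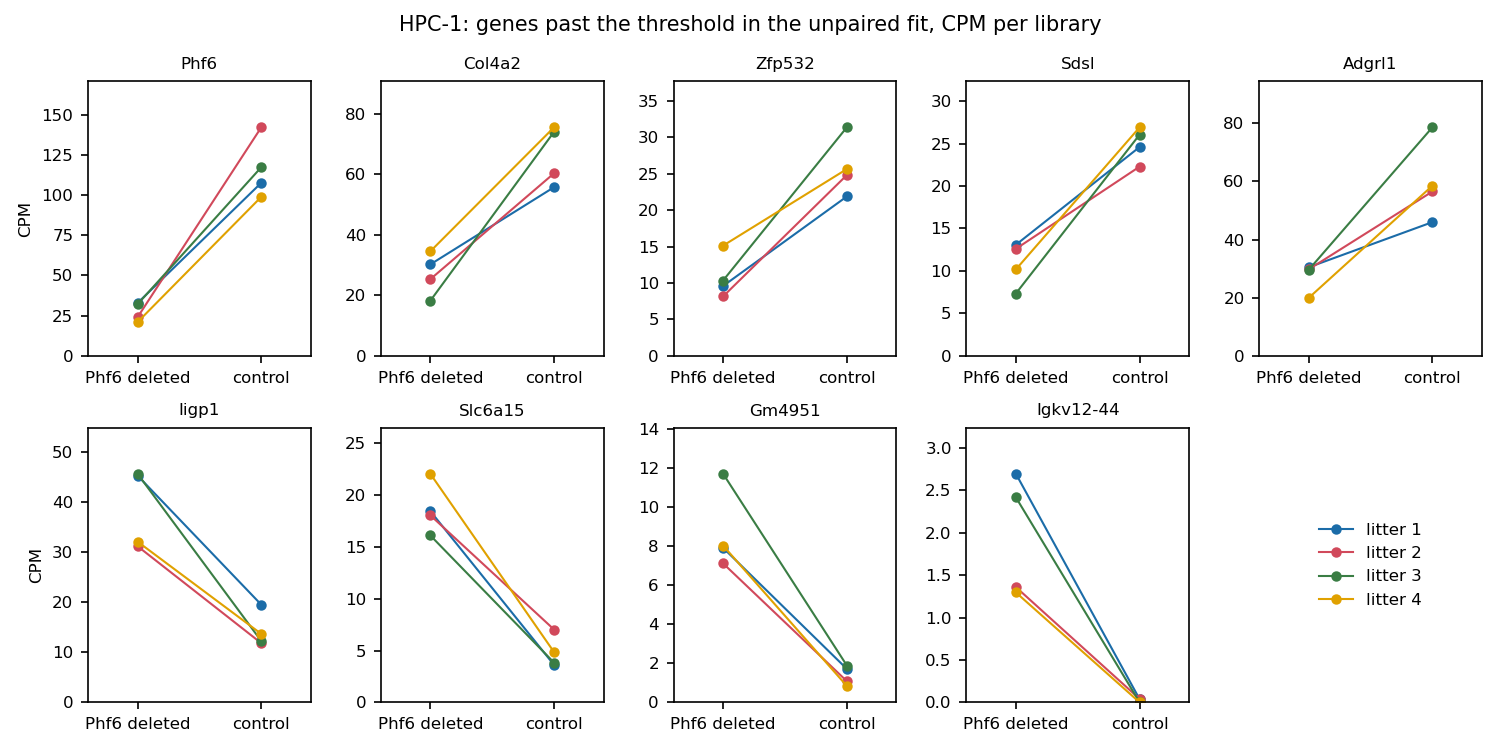
Level (CPM) of the 9 genes past the threshold without pairing, in the deleted library (left) and the control library (right) of each litter; a line joins the mice of a litter. In each panel the 4 deleted libraries lie wholly on one side of the 4 controls, with Phf6 at 20.98 to 32.8 CPM in deleted and 98.9 to 142 CPM in control libraries.

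Most of the 9 calls sat close to the threshold. With 1 library left out the number called was 1 without deleted library 1, 4 without deleted 2, 10 without deleted 3, 11 without deleted 4, 7 without control 1, 2 without control 2, 3 without control 3 and 1 without control 4. Phf6 passed in all 8 of these edgeR fits (highest adjusted p = 0.000749). Slc6a15 missed without deleted 1 (adjusted p = 0.059) and control 4 (0.0518), and Gm4951 missed without deleted 1 (0.059), control 2 (0.0704) and control 4 (0.0549). Iigp1 passed in 4 of the 8 fits, Col4a2 in 3, Adgrl1 in 2, Zfp532 in 1, and Sdsl and Igkv12-44 in 0, with adjusted p-values between 0.0507 and 0.279 where they missed. Over these fits the log2 fold change was 1.83 to 2.19 for Slc6a15 and -1.43 to -1.14 for Col4a2.

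Slc6a15, which carries neutral amino acids into cells together with sodium (chr10:103367808-103419379), had 18.4, 18.03, 16.1 and 22.03 CPM in deleted libraries, against 3.60, 7.01, 3.82 and 4.84 CPM in control libraries. The lowest deleted value lay above the highest control value. It rose with a log2 fold change of 1.95 ± 0.25 (edgeR, adjusted p = 0.00856, and 0.000596 with the litter). Of the 17 neutral and basic amino acid transporters tested, 9 were higher and 8 lower, the median log2 fold change was 0.09, against -0.00 over all genes tested, and Slc6a15 was the only one to pass in either fit.

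Interferon-stimulated genes were higher as a group, by small steps. The gene lists, here and below, were chosen with earlier results of these data known. Their shares beside those of all genes are therefore descriptions and not tests. Of 47 type I interferon response genes tested, 46 lay higher in deleted HPC-1, with a median log2 fold change of 0.36; over all genes tested 6853 of 13907 lay higher. None of the 47 passed without pairing in edgeR, where 26 had an unadjusted p under 0.05, while DESeq2 called 6 and limma-voom 1. With the litter, 6 rose in the paired edgeR fit: Rsad2, Ifi44, Mx1, Oas2, Irf7 and Cmpk2, where 0.216% of all genes did so. The groups did not overlap for 16 of the 47, all of them higher, against 1.58% of all genes. In 4 of 4 litters 32 were higher, against 7.84% of all genes (8.28% were lower in 4 of 4). The summed level of the list was 3027, 2648, 2953 and 2739 CPM in the deleted libraries of litters 1 to 4 and 2213, 2203, 2603 and 2238 CPM in the controls. Every deleted library lay above every control library in this sum, and control library 3 lay nearest to them.

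Rsad2, which encodes the antiviral enzyme viperin, was at 24.2, 19.9, 25.1 and 36.4 CPM in deleted libraries, against 13.97, 14.3, 10.7 and 13.1 CPM in controls (0.99 ± 0.19 on the log2 scale, paired edgeR adjusted p = 0.0261). Ifi44, an interferon-induced cytoplasmic protein, was at 56.3, 39.98, 48.7 and 46.6 CPM, against 25.3, 26.8, 33.4 and 25.1 CPM (0.79 ± 0.13, 0.0105). Irf7, the transcription factor that amplifies type I interferon production, was at 42.2, 39.9, 44.3 and 40.7 CPM in deleted and 29.1, 21.1, 22.2 and 29.4 CPM in control libraries (0.73 ± 0.13, 0.0239). For these 3 genes no deleted library fell into the control range. Cmpk2, a mitochondrial nucleotide kinase whose gene is the neighbour of Rsad2 (start sites 12763 bases apart on opposite strands), also kept the groups apart, with 37.9 to 46.3 CPM in deleted and 25.4 to 31.5 CPM in control libraries (0.56 ± 0.12, paired edgeR adjusted p = 0.0496). Oas2, an oligoadenylate synthetase of the RNase L pathway, rose in the paired fit (0.65 ± 0.14, 0.0486) with overlapping groups, 64.2 to 84.1 against 29.3 to 70.4 CPM. Mx1, annotated in mouse RefSeq as a transcribed pseudogene, rose at 12.2 to 19.3 CPM in deleted and 5.37 to 9.79 CPM in control libraries (1.24 ± 0.24, 0.027).

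Members of the list that did not pass in either fit included Ifit1, an RNA-binding antiviral protein, at 12.7 to 15.99 CPM in deleted and 5.82 to 7.62 CPM in control libraries (1.01 ± 0.21, edgeR adjusted p = 0.123, and 0.064 with the litter). Isg15, a ubiquitin-like modifier, was at 10.8 to 15.6 and 5.46 to 9.71 CPM (0.80 ± 0.25, 0.582, and 0.164 with the litter). Both genes had non-overlapping groups. The receptors and signalling genes of the pathway gave no call in edgeR in either fit (0 and 1 at an unadjusted p under 0.05) nor in DESeq2 or limma-voom: 11 of 14 were higher, with a median of 0.07.

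The immunity-related GTPases, which attack the vacuoles of intracellular pathogens in mice, held 2 of the 9 unpaired calls, among 13 tested, where 0.0288% of all genes were called higher. This list, too, was chosen with earlier results known, so the share is not a test. Iigp1 (chr18:60373616-60392634) was at 45.3, 31.2, 45.7 and 32.1 CPM in deleted libraries, against 19.5, 11.8, 12.2 and 13.7 CPM in controls. It rose (1.43 ± 0.19, edgeR, adjusted p = 0.00964, and 0.000265 with the litter). Gm4951, a predicted GTPase gene nearby on the same chromosome (chr18:60212004-60248440), was at 7.90, 7.11, 11.7 and 8.02 CPM, against 1.71, 1.08, 1.88 and 0.838 CPM, and rose (2.66 ± 0.36, 0.00964, and 0.00147 with the litter). For both genes the lowest deleted value lay well above the highest control value. All 13 GTPases tested lay higher, with a median of 0.42, and 5 were higher with non-overlapping groups, against 1.58% of all genes. Igtp, another of them, was at 49.4 to 73.3 CPM in deleted and 40.8 to 48.1 CPM in control libraries without passing (0.42 ± 0.13, edgeR adjusted p = 0.633). These genes form a family of close relatives, and reads that could belong to several of them make single members uncertain. The guanylate-binding proteins, a sister family of interferon-induced GTPases, were higher in 8 of 8 members with a median of 0.19, and none passed (edgeR, with 0 at an unadjusted p under 0.05 without and 1 with the litter, and 0 by DESeq2 or limma-voom) or had non-overlapping groups. Gbp7 was at 88.4 to 121 and 80.3 to 104 CPM (0.24 ± 0.11, 0.988).

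**Figure D2:**
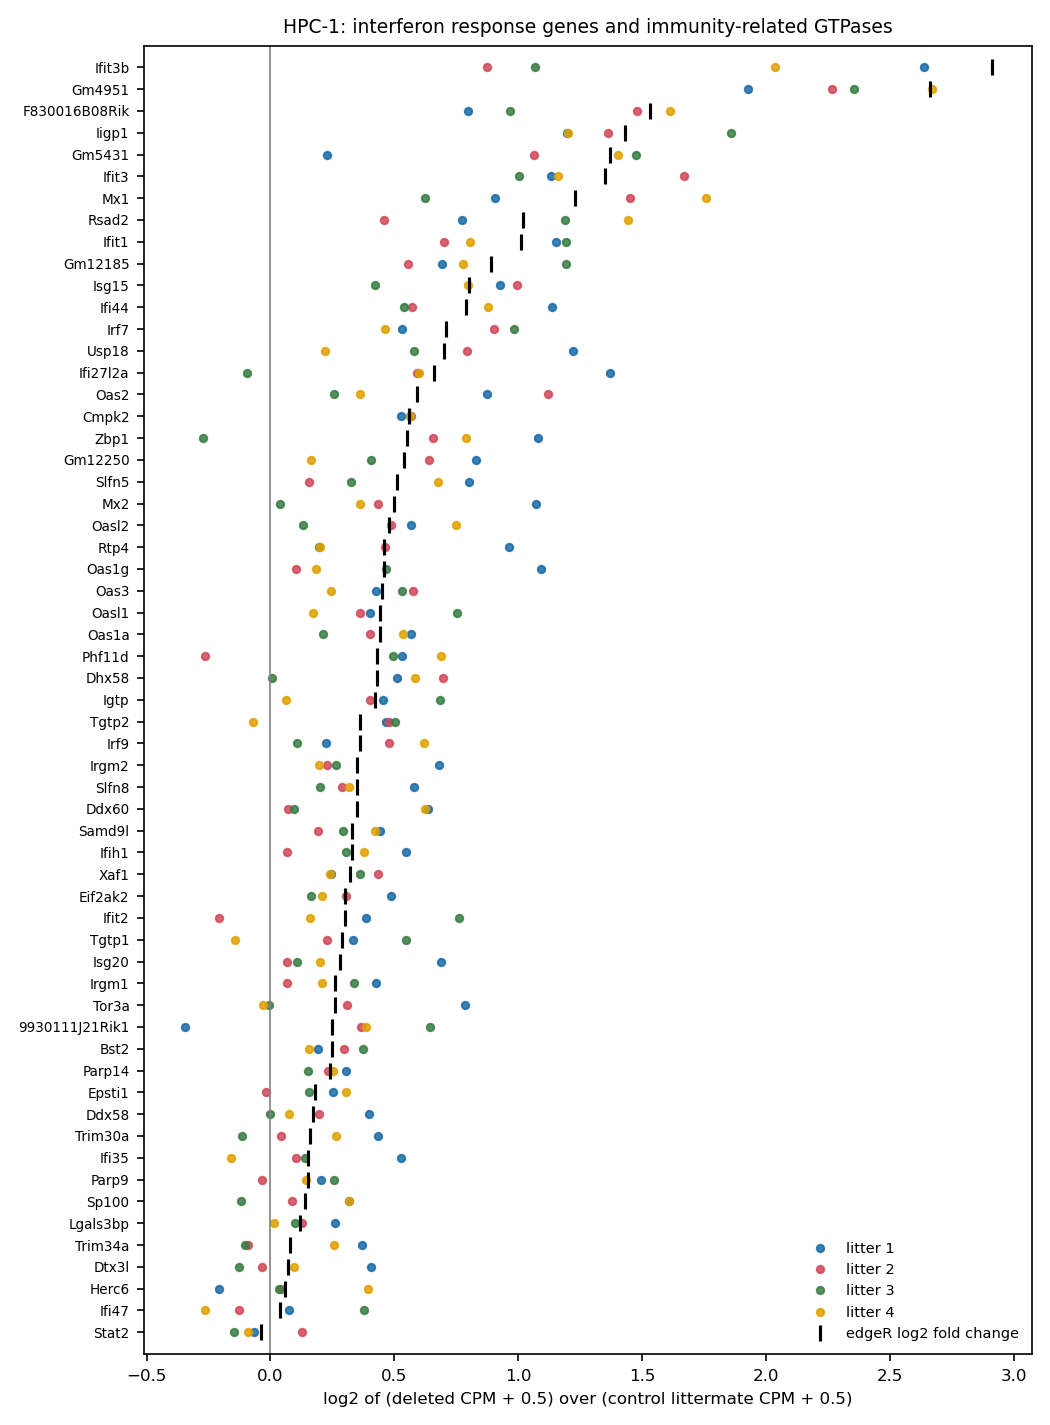
Each point is 1 litter: log2 of the deleted CPM plus 0.5 over the control littermate's CPM plus 0.5, for type I interferon response genes and immunity-related GTPases, with the edgeR log2 fold change as a black tick. Most points lie right of 0, Gm4951 and Iigp1 in 4 of 4 litters, and the spread between litters is as wide as the shift for many genes.

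The promoter letters of 5 of these genes are shown because they differ in whether the gene passed while each holds the same element. The stretches are the 250 bases before the start site from RefSeq on GRCm38.p6, written in the gene's direction; capitals mark GAAA, any 2 bases and GAAA, read on either strand, with overlapping matches run together. Ifit1, Isg15 and Igtp fall outside the rule for named genes and were chosen after their values were seen.
Rsad2 (chr12:26456453-26456702, minus strand): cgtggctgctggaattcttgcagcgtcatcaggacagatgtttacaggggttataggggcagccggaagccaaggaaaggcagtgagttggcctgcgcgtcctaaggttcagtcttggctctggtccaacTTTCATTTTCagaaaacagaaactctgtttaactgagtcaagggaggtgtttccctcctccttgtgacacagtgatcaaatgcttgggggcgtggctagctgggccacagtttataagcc
Ifit1 (chr19:34640639-34640888, plus strand): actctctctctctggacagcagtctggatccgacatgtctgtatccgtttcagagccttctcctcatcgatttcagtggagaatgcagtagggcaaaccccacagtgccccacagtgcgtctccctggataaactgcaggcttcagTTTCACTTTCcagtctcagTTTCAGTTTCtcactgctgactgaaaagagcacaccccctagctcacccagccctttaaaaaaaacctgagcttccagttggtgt
Isg15 (chr4:156200819-156201068, minus strand): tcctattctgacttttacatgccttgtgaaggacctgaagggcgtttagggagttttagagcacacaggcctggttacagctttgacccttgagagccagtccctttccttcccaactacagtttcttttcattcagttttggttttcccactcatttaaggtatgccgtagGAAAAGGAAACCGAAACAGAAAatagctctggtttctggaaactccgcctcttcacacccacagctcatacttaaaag
Igtp (chr11:58199306-58199555, plus strand): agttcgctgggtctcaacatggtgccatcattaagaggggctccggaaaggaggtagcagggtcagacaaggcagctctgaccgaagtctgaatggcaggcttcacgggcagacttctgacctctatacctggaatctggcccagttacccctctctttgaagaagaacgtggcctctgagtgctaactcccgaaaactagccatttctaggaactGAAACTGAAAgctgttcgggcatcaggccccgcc
Gbp7 (chr3:142530086-142530335, plus strand): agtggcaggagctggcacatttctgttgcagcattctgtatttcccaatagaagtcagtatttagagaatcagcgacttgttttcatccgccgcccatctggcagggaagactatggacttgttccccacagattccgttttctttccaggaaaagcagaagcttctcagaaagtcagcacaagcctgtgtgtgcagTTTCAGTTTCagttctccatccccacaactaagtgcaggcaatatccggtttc
The match starts 120 bases before the start site in Rsad2, 53 bases before it in Gbp7 and 34 bases before it in Igtp, while Ifit1 holds 2 matches and Isg15 holds 3 that overlap.

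Over windows of 300 bases (250 before and 50 after the start site) the element was present for 18 of 36 type I interferon genes that have a window, 8 of 11 immunity-related GTPases, 5 of 5 guanylate-binding proteins and 0 of 8 class II genes. It was present for 1079 of all 27025 genes with a window, a share of 3.99%. Of the 4 called interferon genes with a window, Rsad2 held it and Cmpk2, Ifi44 and Irf7 did not. A match is a description of letters, and a window without one says nothing about binding.

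Class II antigen presentation genes were higher in 8 of 11 members, with a median log2 fold change of 0.20, and 3 rose in the paired edgeR fit, where 0.216% of all genes did. None passed in the unpaired edgeR fit, where 2 had an unadjusted p under 0.05, while DESeq2 called H2-Ab1 there (adjusted p = 0.00698) and limma-voom none. H2-Ab1, a class II beta chain, was at 107, 118, 90.2 and 95.95 CPM in deleted libraries, against 82.5, 65.9, 54.7 and 70.6 CPM in controls, with no overlap (0.59 ± 0.10, paired edgeR adjusted p = 0.0124). H2-Aa, its alpha chain partner, was at 71.2, 78.6, 37.8 and 51.3 CPM, against 59.9, 39.7, 17.8 and 25.5 CPM. The groups overlapped, with litters 3 and 4 the lower ones of both genotypes, and the deleted mouse was higher in each litter (0.83 ± 0.14, 0.0114, against 0.999 without the litter). Cd74, the invariant chain that guides class II molecules, had the same shape at 143, 152, 66.1 and 87.4 CPM in deleted and 103, 70.5, 42.6 and 44.3 CPM in control libraries (0.80 ± 0.11, 0.00256, against 0.999 without the litter). H2-Eb1, a further beta chain, missed narrowly in the paired fit (0.97 ± 0.20, 0.0506), and Ciita, the transactivator of the class, did not pass (4.99 to 14.7 against 5.06 to 7.29 CPM). Monocyte and dendritic cell markers, given further on, moved with these genes; their part in the result was not tested.

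The basement membrane genes lay on the lower side. All 12 of the collagen IV, laminin and related genes tested were lower in deleted HPC-1, with a median log2 fold change of -0.47, and 3 of the 12 fell in the paired fit, where 0.216% of all genes did. Col4a2, a chain of the collagen that forms basement membrane sheets, was at 30.2, 25.4, 18.2 and 34.6 CPM in deleted libraries, against 55.8, 60.4, 74.1 and 75.6 CPM in controls. It fell (-1.29 ± 0.18, edgeR, adjusted p = 0.0107, and 0.00102 with the litter). Col4a1 encodes the partner chain of the same triple helix. It was at 30.3, 27.2, 18.9 and 49.1 CPM, against 59.5, 65.2, 74.2 and 78.2 CPM, and fell in the paired fit (-1.21 ± 0.17, 0.00975, against 0.252 without the litter). The 2 genes lie head to head on chromosome 8 (Col4a2 chr8:11312805-11449287 and Col4a1 chr8:11198423-11312889), with RefSeq start sites 21 bases apart on opposite strands, and litter 3 showed the widest gap for both. The annotated genes overlap at these starts, and the strand setting of the counting is not stated, so reads there cannot be told apart.

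Lama5, a laminin alpha chain, was at 2.77, 3.66, 2.46 and 3.22 CPM in deleted libraries, against 5.86, 7.62, 17.6 and 11.04 CPM in controls (-1.68 ± 0.33, paired edgeR adjusted p = 0.0367, against 0.0988 without the litter). The other 9 did not pass and had overlapping groups, among them the collagen chaperone Serpinh1 (0.628 to 2.06 CPM in deleted and 0.619 to 7.65 CPM in control libraries, -1.60 ± 0.64, 0.878). The list's median moved with litter 3, and was -0.24 without deleted library 3, -0.19 without control library 3 and -0.06 without both in the paired fit. Endothelial and stromal markers, whose cells make basement membrane, were mixed: 3 of 8 tested lay higher and their summed level was 304 to 399.9 CPM in deleted and 318 to 360 CPM in control libraries. None passed in edgeR, where 1 higher and 2 lower had an unadjusted p under 0.05 in each fit. DESeq2 and limma-voom each called 0 without and 1 with the litter. In 4 of 4 litters 2 were higher and 3 lower, against 7.84% and 8.28% of all genes. Cdh5, Col3a1 and Lepr were each under 1 CPM in every library. Emcn, a sialomucin of endothelium and stem cells, was at 7.37 to 14.2 CPM in deleted and 15.4 to 22.8 CPM in control libraries without overlap, and did not pass (-0.89 ± 0.24, edgeR adjusted p = 0.386). The part of such cells in the result was not tested.

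Zfp532, a zinc finger gene on chromosome 18, was at 9.59, 8.15, 10.3 and 15.1 CPM in deleted libraries, against 21.9, 24.8, 31.4 and 25.6 CPM in controls, and fell (-1.26 ± 0.21, edgeR, adjusted p = 0.037, and 0.00442 with the litter). Sdsl, a serine dehydratase-like enzyme, was at 13.1, 12.6, 7.34 and 10.2 CPM, against 24.6, 22.3, 26.1 and 26.9 CPM (-1.21 ± 0.20, 0.037, and 0.00806 with the litter). It was the only one of 15 serine and one-carbon metabolism genes tested to pass; 10 of them lay higher. Adgrl1 (latrophilin 1), an adhesion receptor coupled to G proteins, was at 30.5, 29.7, 29.6 and 19.9 CPM, against 45.99, 56.5, 78.6 and 58.5 CPM (-1.13 ± 0.17, 0.0296, and 0.00185 with the litter). Its relative Adgrl2 was also lower without overlap, at 21.5 to 35.4 against 41.5 to 53.3 CPM, and did not pass (-0.53 ± 0.16, 0.535). Of the 11 adhesion receptors of this class tested, 6 were higher and 5 lower, with a median log2 fold change of 0.07. In edgeR Adgrl1 was the only one to pass in either fit. Groups were lower without overlap for 2 of the 11, against 2.08% of all genes.

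Most of the lower genes called by the paired fit alone belong to no list, and they were of several kinds. Among secreted and matrix-acting proteins, Serpinf1 (pigment epithelium-derived factor) was at 33.4, 28.5, 27.2 and 50.02 CPM in deleted libraries, against 71.8, 53.95, 75.8 and 104 CPM in controls. It had the smallest adjusted p after Phf6 among the lower genes (-1.14 ± 0.12, paired edgeR adjusted p = 0.000157, against 0.213 without the litter). Timp2, a metalloproteinase inhibitor, was at 13 to 18.8 CPM in deleted and 26.2 to 39.9 CPM in control libraries (-0.92 ± 0.18, 0.0317), and Mmp2, a protease that cuts type IV collagen, at 9.51 to 18.4 and 20.7 to 31.6 CPM (-0.86 ± 0.18, 0.0492). Neither gene's groups overlapped.

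Of proteins that link cells to their surroundings and to actin, Itgb5, an integrin subunit, was at 20.9 to 30.4 CPM in deleted and 34.6 to 48.2 CPM in control libraries (-0.76 ± 0.16, paired edgeR adjusted p = 0.0433). Tjp1, the tight junction scaffold, was at 9.60 to 19.1 and 21.8 to 29.98 CPM (-0.85 ± 0.17, 0.0402). Actn1, which cross-links actin, overlapped slightly between groups at 32.2 to 47.3 and 46.1 to 71.4 CPM (-0.61 ± 0.12, 0.035). Myof, a membrane repair protein, and Krt80, a keratin, also fell (-0.75 ± 0.12, 0.00752 for Myof, and -1.33 ± 0.26, 0.034 for Krt80), as did the neurofilament gene Nefh (-0.80 ± 0.13, 0.00803) and the adhesion gene Mdga1 (-0.52 ± 0.11, 0.0492).

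Muc13, a cell surface mucin, was one of the more abundant of these genes, at 268, 302, 274 and 301 CPM in deleted libraries, against 346, 402, 504 and 483 CPM in controls (-0.59 ± 0.09, paired edgeR adjusted p = 0.00448). P2ry14, the receptor for UDP-glucose, was at 39.1, 33.97, 40.3 and 34.2 CPM, against 58, 58.2, 62.2 and 53 CPM with no overlap (-0.65 ± 0.11, 0.0114). Il18r1, an interleukin 18 receptor subunit, was at 19.4, 12.3, 5.75 and 6.10 CPM in deleted and 31.04, 25.7, 12.4 and 14.1 CPM in control libraries. The groups overlapped, and each deleted mouse lay below its littermate (-1.01 ± 0.18, 0.0227, against 0.997 without the litter). Cd72, a B cell co-receptor, fell (-0.56 ± 0.11, 0.0317). Ndrg1, a stress-responsive gene, and Scd2, a fatty acid desaturase, were abundant genes that fell by small steps, Ndrg1 at 129 to 149 CPM in deleted and 179.6 to 204 CPM in control libraries (-0.48 ± 0.08, 0.00806) and Scd2 at 378 to 481 and 511 to 555 CPM (-0.35 ± 0.07, 0.0402). Galnt6 and Entpd5, which act in protein glycosylation, fell too (-0.40 ± 0.08, 0.0476 for Galnt6, and -0.42 ± 0.09, 0.0425 for Entpd5). The calcium-binding protein Rcn3 (-0.72 ± 0.13, 0.0138), the kinase Cdk18 (-0.78 ± 0.16, 0.0425) and the Ras regulator Dab2ip (-0.56 ± 0.10, 0.0261) fell as well.

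**Figure D3:**
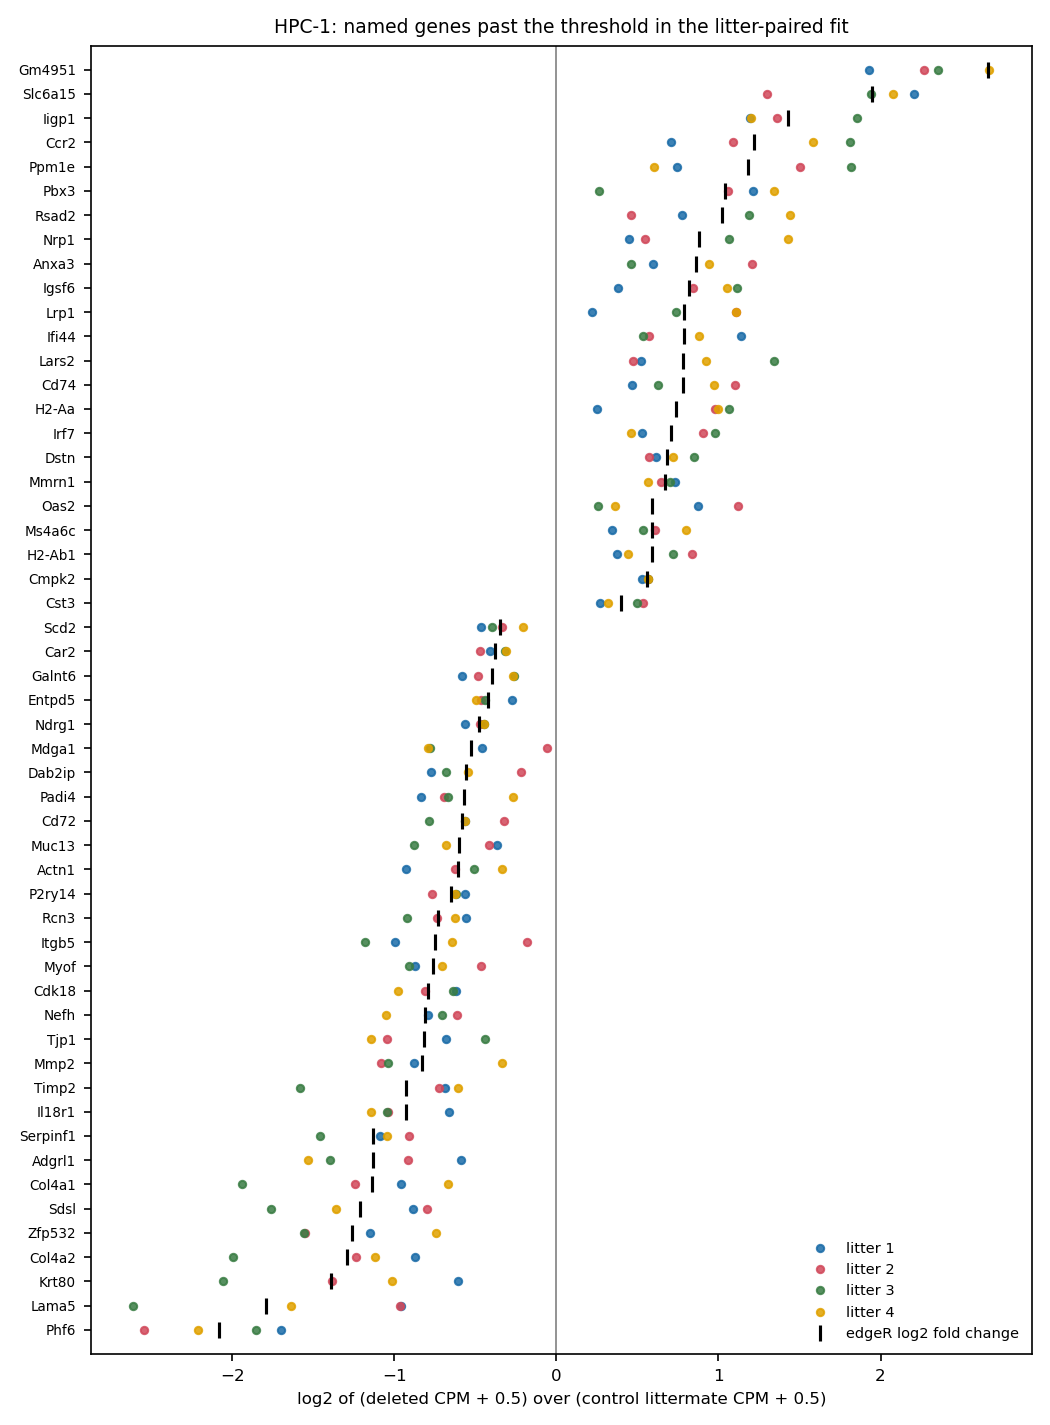
Each point is 1 litter: log2 of the deleted CPM plus 0.5 over the control littermate's CPM plus 0.5, for the named genes past the threshold in the litter-paired edgeR fit, with the unpaired edgeR log2 fold change as a black tick. All points of a gene lie on one side of 0, a pattern that the paired fit selects for, and Phf6 is the lowest row.

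The paired calls were sensitive to single litters. Without litter 1 the paired edgeR fit called 24 genes, of which 20 were among the 60; without litter 2 it called 36 (25 shared), without litter 3 it called 51 (31 shared) and without litter 4 it called 16 (12 shared). Only 8 of the 60 passed in all 4 of these fits: Phf6, Slc6a15, Iigp1, Gm4951, Col4a2, Zfp532, Serpinf1 and Ccr2. Another 19 passed in none.

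Genes of monocytes and dendritic cells lay higher in deleted HPC-1. Of 16 markers tested 14 were higher, against 6853 of all 13907 genes, with a median log2 fold change of 0.57. In the paired fit 3 rose, where 0.216% of all genes did. Ccr2, the chemokine receptor that guides monocytes, was at 75.2, 67.5, 37.2 and 106 CPM in deleted libraries, against 45.9, 31.5, 10.2 and 34.99 CPM in controls. The groups overlapped, and the deleted mouse was the higher in each litter (1.30 ± 0.16, paired edgeR adjusted p = 0.00147, against 0.988 without the litter). Ms4a6c, a membrane protein of monocytes, rose (0.58 ± 0.10, 0.015), as did Cst3, the protease inhibitor cystatin C (0.40 ± 0.08, 0.0402). Cx3cr1, a receptor of monocytes and their precursors, did not pass (0.94 ± 0.26, edgeR adjusted p = 0.42). The summed level of the list was 755, 798, 432 and 1039 CPM in deleted libraries and 633, 429.5, 299.6 and 523 CPM in controls, higher in the deleted mouse of each litter. Cd209d was under 1 CPM in every library.

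Several other paired calls that rose are known from myeloid cells. Anxa3, an annexin of granulocytes, was at 26.96 to 72.1 CPM in deleted and 19.4 to 37.4 CPM in control libraries (0.82 ± 0.13, paired edgeR adjusted p = 0.0105). Igsf6, an immunoglobulin superfamily receptor of dendritic and myeloid cells, was at 20.5 to 57.4 and 9.18 to 30.96 CPM (0.85 ± 0.14, 0.0114). Lrp1, an endocytic receptor, and Nrp1, a receptor for semaphorins and VEGF, rose as well (0.81 ± 0.15, 0.0261 for Lrp1, and 0.89 ± 0.19, 0.0492 for Nrp1). All 4 had overlapping groups and followed the litters: litter 3 was the lowest of each genotype for each of them.

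The granulocyte-monocyte list was higher in 17 of 22 members (median 0.37) with no call in edgeR, DESeq2 or limma-voom, and 1 edgeR unadjusted p under 0.05 without and 7 with the litter. Mature neutrophil markers were higher in 14 of 15 members, with a median of 0.51 that rested on 1 library: their summed level was 992, 1175, 410.3 and 2946 CPM in deleted libraries and 1042, 1506, 508 and 1002 CPM in controls, and the median was -0.36 without deleted library 4. The single neutrophil-list gene to pass went the other way: Padi4, which citrullinates histones, was at 53.1, 57.3, 70.1 and 113 CPM in deleted libraries, against 95.3, 93.2, 112 and 136 CPM in controls, and fell in the paired fit (-0.62 ± 0.10, adjusted p = 0.0105).

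**Figure D4:**
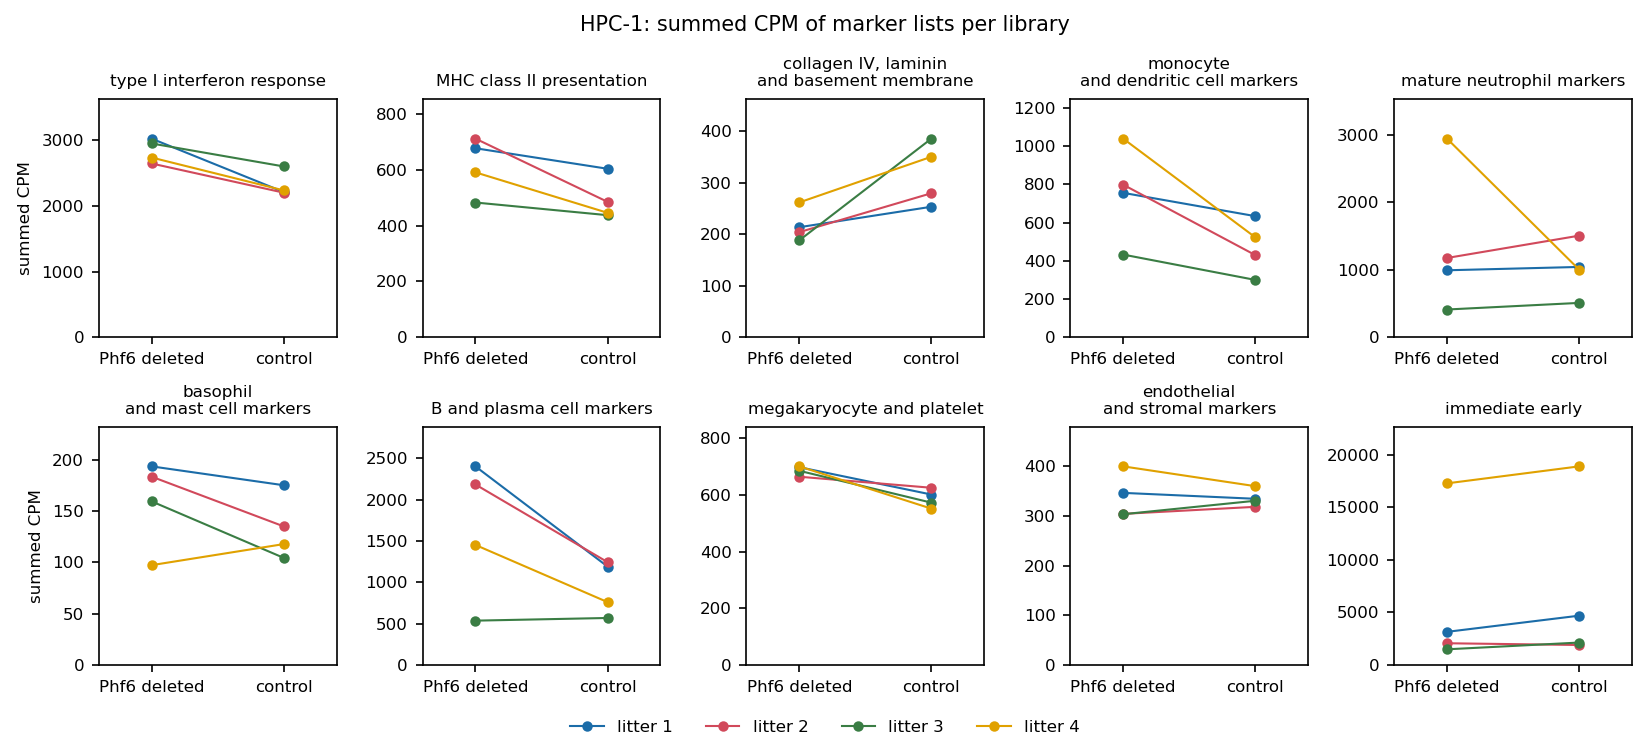
Summed level (CPM) of 10 gene lists in the deleted library (left) and the control library (right) of each litter, joined by a line. Type I interferon sums were 2648 to 3027 CPM in deleted and 2203 to 2603 CPM in control libraries, while immediate early sums separate litter 4 from the others in both genotypes.

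Immunoglobulin segments gave the widest fold changes among the calls. Igkv12-44, a kappa light chain variable segment (chr6:69814631-69815100), had 178 counts over the deleted libraries (75, 26, 50 and 27) and 2 over the controls (1, 1, 0 and 0), a ratio of 96.5 with a 95% exact counting interval of 26.3 to 803. It passed in both edgeR fits (adjusted p = 0.0336, and 0.0231 with the litter). In the paired edgeR fits without 1 litter it missed each time (adjusted p = 0.0521 to 0.199). DESeq2 called it in both fits, and limma-voom with the litter (adjusted p = 0.0147) and not without (0.103). Igkv6-32 had 1329 counts in deleted libraries, of which 1213 came from library 2, and 0 in controls, at least 480-fold higher against a floor of 3 counts over the control group. Without deleted library 2 the bound was 53.3-fold. It passed with the litter (paired edgeR adjusted p = 3.55e-06) and not without (0.993), and the paired call was lost without litter 2 (adjusted p = 0.151). Since every control held 0 counts, the litter terms fit each deleted library by itself. The paired p-value therefore does not measure the spread between deleted mice and is no support for a change. The intervals cover counting error only. Of 103 kappa variable segments 15 could be tested, and since they resemble one another the assignment of reads to single segments is uncertain. Igkv12-44 and Igkv6-32 reached the test only through the deleted libraries, where they are high, so their direction was fixed by the filter.

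B and plasma cell markers moved with these segments in 3 of 4 litters. Their summed level was 2401, 2182, 535 and 1451 CPM in the deleted libraries of litters 1 to 4 and 1190, 1243, 568 and 759.7 CPM in the controls. Ighm, the mu heavy chain, made up most of it, at 2203, 2012, 478 and 1349 CPM in deleted and 1069, 1103, 503 and 676 CPM in control libraries. The sum over kappa variable segments was 543, 477, 46.1 and 238 CPM in deleted libraries and 105, 197, 57.7 and 135 CPM in controls. Of the 13 markers tested 6 were higher, none passed in edgeR (1 unadjusted p under 0.05 without and 3 with the litter; 1 paired call each by DESeq2 and limma-voom), and the defining B cell genes Ms4a1 and Pax5 were each under 1 CPM in every library. The part of these cells in the result was not tested.

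Megakaryocyte and platelet genes were higher in 14 of 16 members tested, against 6853 of all 13907 genes, with a median log2 fold change of 0.39. None passed in the unpaired edgeR fit, and 1 rose in the paired fit, where 0.216% of all genes did. An unadjusted edgeR p under 0.05 was reached by 3 without and 5 with the litter. DESeq2 called 1 without and 2 with the litter, and limma-voom 0 and 1. Mmrn1, the platelet granule protein multimerin, was at 46.5, 52.6, 44.99 and 37.2 CPM in deleted libraries, against 27.8, 33.5, 27.5 and 25.1 CPM in controls, without overlap, and rose in the paired fit (0.67 ± 0.12, adjusted p = 0.015). F2r, a thrombin receptor, did not pass (0.40 ± 0.14, edgeR adjusted p = 0.77). The list's summed level was 664 to 701 CPM in deleted and 552 to 626 CPM in control libraries, with all 4 deleted libraries above all 4 controls, while Gp6 was at 0 in all 8. Among 15 erythroid genes 5 were higher, and 1 fell in the paired fit, where 0.216% of all genes did. This was Car2, a carbonic anhydrase (-0.38 ± 0.07, 0.0315), at 192 to 271 CPM in deleted and 238 to 342 CPM in control libraries.

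Basophil and mast cell markers were higher in 8 of 11 members without an edgeR call; 4 had an unadjusted p under 0.05 in each fit, and DESeq2 called 2 without and 3 with the litter, limma-voom 0 and 1. Cma1, a mast cell chymase, had 217 counts over the deleted libraries and 8 over the controls, a ratio of 29.4 (95% exact counting interval 14.7 to 69), and did not pass in either fit (edgeR adjusted p = 0.265, and 0.056 with the litter). All 8 control counts came from control library 2, and without it Cma1 was at least 58.2-fold higher against a floor of 3 counts over the control group. With any other single library left out, the Cma1 ratio ran from 21 (10.5 to 49.2, without control library 4) to 37 (18.4 to 86.9, without deleted library 4). The Cma1 intervals cover counting error only and leave out the spread between mice. Gzmb, the cytotoxic protease granzyme B, was at 4.13, 8.26, 5.65 and 3.94 CPM in deleted libraries, against 1.02, 1.24, 1.00 and 1.87 CPM in controls, without overlap (2.09 ± 0.42, 0.105, and 0.0598 with the litter). The summed level of the list was 97.2 to 194 CPM in deleted and 104 to 175 CPM in control libraries.

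Stem cell transcription factors were mostly lower, in 21 of 28 members, against 7054 of all 13907 genes, with a median log2 fold change of -0.12. In the paired edgeR fit 1 rose and 1 fell, where 0.216% of all genes did so in each direction. An unadjusted edgeR p under 0.05 was reached by 4 without and 8 with the litter. DESeq2 called 2 in either fit, and limma-voom 1 without and 2 with the litter. Besides Zfp532, the member to pass was Pbx3, a homeobox partner of HOX proteins, which was higher: it was at 26.04, 20.5, 14.2 and 25.8 CPM in deleted libraries, against 10.9, 9.58, 11.8 and 9.90 CPM in controls, and rose in the paired fit (1.01 ± 0.21, adjusted p = 0.0433, against 0.114 without the litter). Hoxa5, a homeobox factor, was at 15.5 to 18.1 CPM in deleted and 18.1 to 26.9 CPM in control libraries (-0.53 ± 0.17, edgeR adjusted p = 0.627), and Prdm16, a chromatin regulator of stem cells, at 12.2 to 21.9 and 19.6 to 27.7 CPM (-0.53 ± 0.21, 0.842). Neither passed in either fit.

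Lymphoid priming genes were lower in 19 of 24 members, with a median of -0.21 and no edgeR call (1 unadjusted p under 0.05 without and 6 with the litter). DESeq2 called 1 without and 2 with the litter, and limma-voom 0 and 1. Gata3, a transcription factor of T cells, was at 5.96, 6.64, 4.49 and 5.57 CPM in deleted libraries, against 17.2, 10.3, 14.1 and 7.96 CPM in controls. The groups did not overlap, and it did not pass (-1.13 ± 0.27, edgeR adjusted p = 0.252, and 0.11 with the litter). Dntt, the enzyme that adds bases at antigen receptor joins, was at 532 to 720.1 CPM in deleted and 535 to 979 CPM in control libraries (-0.36 ± 0.17, 0.988). Of 20 T-cell leukaemia genes tested other than Phf6, 14 were lower and none passed in edgeR (1 unadjusted p under 0.05 without and 6 with the litter), while DESeq2 called 1 in either fit and limma-voom 0 and 1.

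Other paired calls that rose belonged to none of these lists. Lars2, the mitochondrial leucyl-tRNA synthetase, was at 303, 388, 363 and 419 CPM in deleted libraries, against 211, 280.3, 143 and 221 CPM in controls, without overlap (0.81 ± 0.13, paired edgeR adjusted p = 0.0413). Dstn, which depolymerises actin, was at 74.2 to 96.2 CPM in deleted and 41.01 to 62.8 CPM in control libraries (0.69 ± 0.10, 0.00374), and Ppm1e, a protein phosphatase, at 10.4 to 17.5 and 4.18 to 10.2 CPM (1.22 ± 0.25, 0.0486). Each kept the groups apart. Serpina3f, a serine protease inhibitor named from its change in another population of the series, was at 10.3, 11.9, 10.4 and 12.9 CPM in deleted libraries, against 3.24, 2.25, 5.71 and 8.26 CPM in controls (1.22 ± 0.35, 0.449, and 0.064 with the litter). Lin28b, a fetal RNA-binding protein named for the same reason, had 213 counts over the deleted libraries and 36 over the controls, a ratio of 6.41 (95% exact counting interval 4.49 to 9.4), and did not pass (0.878). Control library 1 held 33 of the 36 control counts, and without it the ratio was 55.2 (18.6 to 270). With any other single library left out, the ratio ran from 4.29 (2.92 to 6.45, without deleted library 4) to 8.47 (5.91 to 12.4, without deleted library 1). The Lin28b intervals cover counting error only and leave out the spread between mice.

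Pathways tied to PHF6 by its known partners gave no call in either fit. Of 13 NuRD partners 3 were higher (median -0.05), of 8 PAF1 complex genes 2, of 15 Polycomb genes 6 and of 36 ribosome biogenesis genes 10 (median -0.06). Of the cell cycle genes, 18 of 30 for S phase were higher (median 0.04) and 10 of 30 for G2 and M phase (median -0.03). Oxidative phosphorylation genes were higher in 44 of 51 members by a median of 0.06, and glycolysis genes in 9 of 18. None of these lists held a call by DESeq2 or limma-voom either. An unadjusted edgeR p under 0.05 was reached without the litter by 1 S phase gene and 1 glycolysis gene, and in the paired fit by 1 S phase, 2 ribosome biogenesis, 2 glycolysis and 1 oxidative phosphorylation gene.

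**Figure D5:**
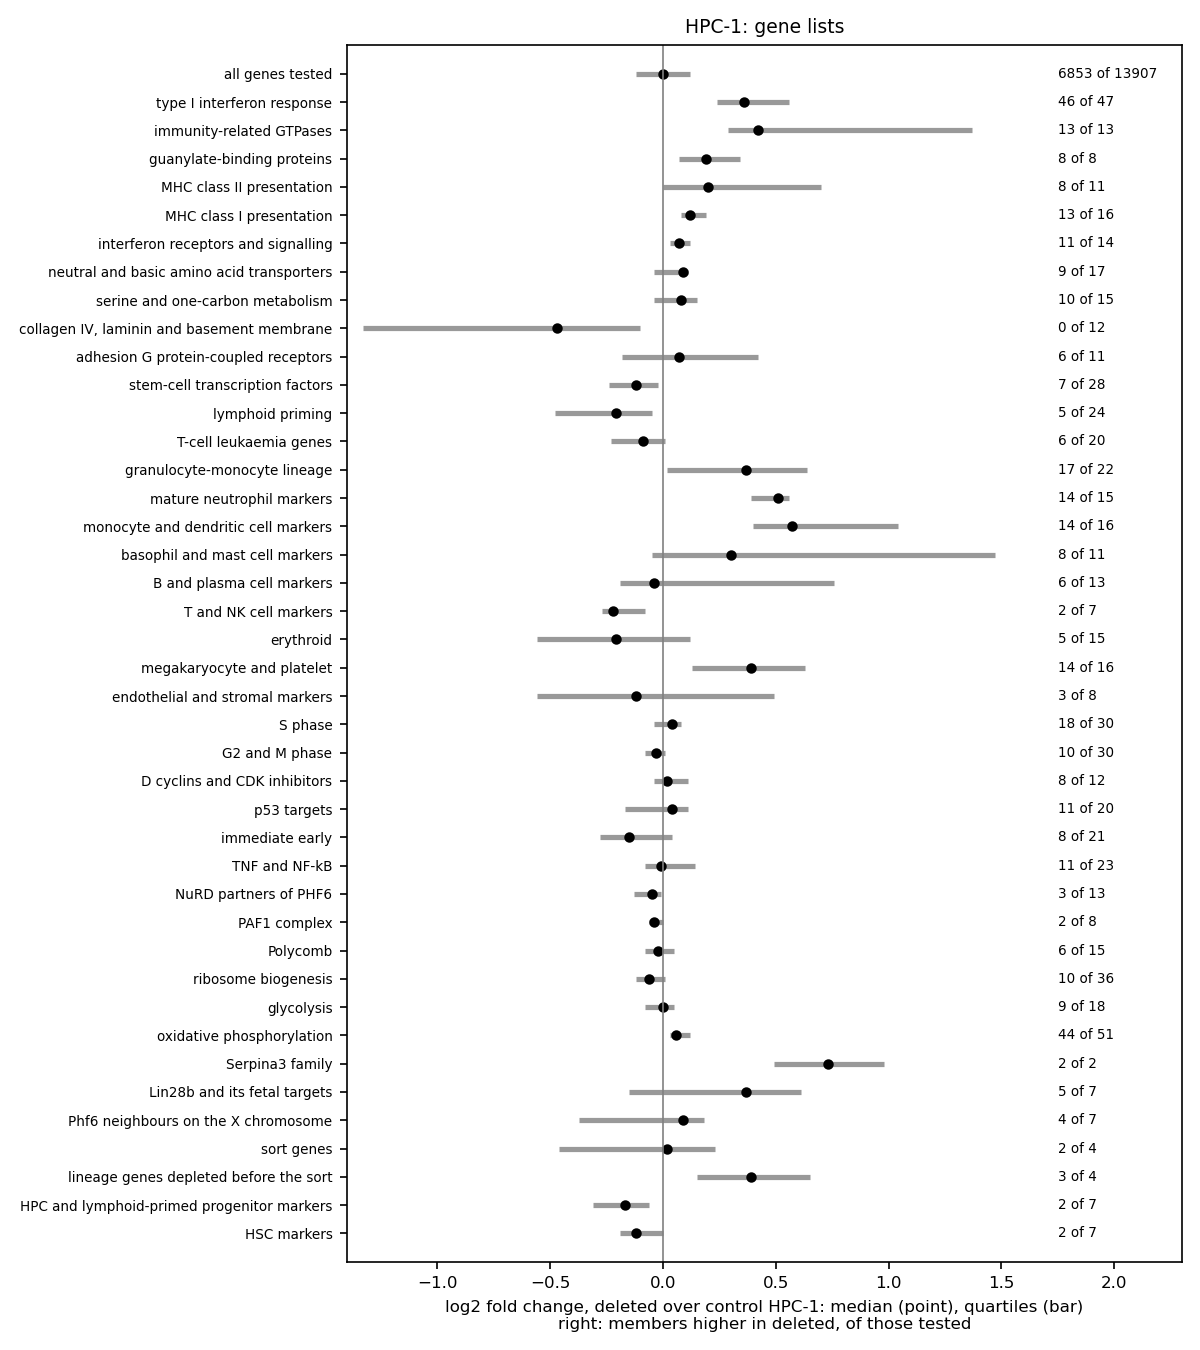
Median (point) and quartiles (bar) of the log2 fold change, deleted over control HPC-1, of the members tested in each gene list, with the number of members higher at the right. The type I interferon list (median 0.36, 46 of 47 higher) lies right of all genes tested (6853 of 13907), and collagen IV, laminin and basement membrane lies left (median -0.47, 0 of 12).

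Set beside the stem cells and multipotent progenitors of the same mice, HPC-1 gave no gene whose response passed a test of the difference. The test of the HPC-1 effect minus the HSC effect called 0 of 14970 genes in edgeR (0%), with 518 genes (3.46%) under an unadjusted p of 0.05 and a lowest adjusted p of 0.501. The HPC-1 effect minus the MPP effect called 0 of 14909 (0%), with 668 genes (4.48%) under an unadjusted p of 0.05 and a lowest adjusted p of 0.629. No other tool was run on these differences, and the count was also 0 with the litter as a block. Neither fit held a term for the mouse, although the same mice gave both populations, so the difference within a mouse was not tested. Among the 55 called and named HPC-1 genes that could be tested there the lowest adjusted p was 0.603 against HSC and 0.89 against MPP. Of these 55, 9 had an unadjusted p under 0.05 against HSC and 9 against MPP (edgeR). They were picked by their change in HPC-1, and the same HPC-1 values enter the difference. Their unadjusted p-values, here and below, are therefore not a separate test.

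The fold changes themselves are given side by side for some genes. Of the 60 paired calls, 52 of the 57 tested in HSC and 54 of the 58 tested in MPP had the same sign as in HPC-1. The populations came from the same mice, so this is no separate support for the calls. Slc6a15 had a log2 fold change of 1.95 ± 0.25 in HPC-1, 1.10 ± 0.35 in HSC and 1.71 ± 0.30 in MPP, and Iigp1 had 1.43 ± 0.19, 1.23 ± 0.25 and 1.24 ± 0.20. Gm4951 had 2.66 ± 0.36, 0.88 ± 0.29 and 1.82 ± 0.26, with an unadjusted p of 0.000492 for HPC-1 minus HSC (edgeR adjusted p = 0.67). Sdsl had -1.21 ± 0.20, -0.64 ± 0.19 and -1.46 ± 0.25. Col4a2 had -1.29 ± 0.18 in HPC-1, -0.37 ± 0.30 in HSC and -0.40 ± 0.32 in MPP, with unadjusted p-values of 0.0245 and 0.0346 for the differences (adjusted 1 and 0.915). Lars2 had 0.78 ± 0.18, -0.56 ± 0.22 and 0.38 ± 0.27, opposite in sign in HSC (unadjusted p of the difference 0.000251, adjusted 0.603). Rsad2 had 1.02 ± 0.20, 1.03 ± 0.19 and 1.51 ± 0.32. The list of type I interferon genes had a median of 0.36 in HPC-1, 0.43 in HSC and 0.59 in MPP, and basement membrane genes -0.47, -0.35 and -0.25. A difference that missed the threshold does not show that the populations respond alike, and the kit differs with the population.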

How the data were processed

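Poly(A) RNA of HPC-1 cells, sorted by cKIT, SCA1, CD150 and CD48 after lineage depletion, was sequenced per mouse. The deposited values are counts per gene, which the authors made on the mm10 build; the submitters' processing notes name bcl2fastq and featureCounts. For the aligner, the annotation and the strand setting the entry is: not given in the sources used here. Of 27179 gene IDs, 25275 were named from RefSeq and 18 from GENCODE.

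Counts were tested with edgeR 4.0.16 (quasi-likelihood, robust, TMM scaling) in R 4.3.3 after filterByExpr (minimum count 10, minimum total 15), with Benjamini-Hochberg adjustment over all 13907 genes and a threshold of 0.05. CPM on TMM library sizes and RPKM, with the deposited gene lengths, were computed from the deposited counts. The fit was repeated with the litter as a block, since the labels give the litter; same-litter deviations from the group means correlated at 0.08 to 0.38, and those of other litters at -0.21 to 0.12. Alternatives were DESeq2 1.42.0, limma-voom 3.58.1, other scalings and filters, libraries or litters left out and a fit of all 24 libraries. Counting intervals are exact at 95%, pool the reads of each group and leave out the spread between mice. The scripts were tested on simulated data.

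Totals of 16562824 to 27786830 counts per library leave genes under 1 CPM with few counts. Named genes were the calls, up to 25 per direction from the paired fit, the 4 list members with the lowest unadjusted p and any called member, and genes called in other populations; provisional symbols were counted, not named, outside the unpaired calls. One member of the interferon list counts in its totals but is not reported here by name and is left out of the plot by litter. Members and gene lists were chosen with earlier results of these data known.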

Additional observations from a re-analysis of the deposited data

Results flagged for a closer look

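In 270 groups of 4 libraries (named genes and summed gene lists, each genotype apart), 22 (8.15%) held 1 library set apart from the other 3 by Dixon's ratio at the 95% level, where chance flags about 1 in 20. Among genes, the deleted library of litter 4 was apart at 19.92 CPM for the latrophilin gene Adgrl1, 21.46 CPM for Adgrl2 and 31.3 CPM for the GTPase gene Gm12250. The deleted library of litter 2 was apart at 63.4 CPM for the kappa segment Igkv6-32. Control libraries were apart at 9.178 CPM for Igsf6 (litter 3), 33.15 CPM for Rcn3 (litter 1), 237.6 CPM for Car2 (litter 4), 1.201 CPM for Lin28b (litter 1), 0.3207 CPM for Cma1 (litter 2) and 53.27 CPM for Adgrl2 (litter 2).

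Summed lists set litter 4 apart most often. Its immediate early genes were at 17300 CPM in the deleted and 18920 CPM in the control library, its TNF and NF-kB genes at 2365 CPM and 2144 CPM, and its ribosome biogenesis genes at 7673 CPM and 8801 CPM. The deleted library of litter 4 also stood apart in serine and one-carbon metabolism (1456 CPM), p53 targets (875.7 CPM) and markers of HPC and lymphoid-primed progenitors (3704 CPM). The deleted library of litter 3 was apart in stem-cell transcription factors (3979 CPM), and the control library of litter 3 in type I interferon response genes (2603 CPM) and sort genes (1184 CPM). The part of litter 4 in the calls was measured by leaving it out: 9 genes were called without it in the unpaired fit, 6 of them among the 9 called with it, and 16 in the paired fit.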

How the results depend on the processing

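The count of genes called moved with the tool and the litter term. It was 9 in the unpaired edgeR fit, 20 without the filter on low counts and 68 with DESeq2. With the litter paired in the replicate block it was 60 with edgeR, 171 with DESeq2 and 106 with limma-voom. Leaving out 1 library gave 1 to 11 calls. In the paired fit, leaving out a litter gave 24 calls without litter 1, 36 without litter 2, 51 without litter 3 and 16 without litter 4. Other scalings gave 9, limma-voom without the block 9, the stricter filter 8 and all 24 libraries in 1 fit 11, of which 5 were among the 9. For 94 genes under 23 settings, 1819 of 2153 values kept direction and side of the threshold, 277 came to pass, 57 no longer passed and none changed sign among the called values. The cause was not tested.

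The median log2 fold change of type I interferon genes stayed between 0.30 and 0.45 over the 23 settings, of immunity-related GTPases between 0.36 and 0.53, and of basement membrane genes between -0.73 and -0.06. Mature neutrophil genes ran from -0.43 to 0.85, and 72 of 943 list medians changed sign. DESeq2 and voom called all paired edgeR genes with the block. Depth limits genes under 1 CPM, the strand setting limits overlapping genes, and 4 mice a group limit the calls near the threshold.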
